A study of Sus scrofa with 8 samples.

Results

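The 10 genes described here encode enzymes of glycolysis: the hexokinases HK1 and HK2, the isomerase GPI, the phosphofructokinase PFKP, the aldolase ALDOA, the isomerase TPI1, and GAPDH, PGK1, ENO1 and LDHA. They were taken by symbol from a table of 25578 pig genes, and all 10 were present. Messenger RNA was sequenced from Sus scrofa cells at 4 stages, each with 2 libraries. Pluripotent stem cells (PSC) are followed by definitive endoderm (DE), the layer of the embryo that forms the gut and its organs, by anterior foregut endoderm (AFE), where airway development starts, and by lung progenitor organoids (LPO). The labels name no genotype, treatment, time, cell line or culture that would tell the 2 libraries of a stage apart, so p-values measure the spread between these libraries, which may be technical.

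Glycolysis splits glucose into pyruvate in the cytosol and yields ATP without oxygen. Hexokinase traps glucose as glucose 6-phosphate, phosphofructokinase commits it to the pathway, and aldolase cleaves the sugar into triose phosphates. GAPDH, PGK1, phosphoglycerate mutase, enolase and pyruvate kinase then carry the trioses to pyruvate, and lactate dehydrogenase turns pyruvate into lactate while regenerating NAD+. Most steps are served by several isoenzymes from separate genes, and many of these genes are known targets of the hypoxia-inducible factor HIF-1. Pluripotent cells in culture are known for a high glycolytic rate.

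Library totals ran from 36004372 to 67566269 counts. About 4 counts were taken to stand for 1 read pair, a ratio assumed from the counts and given by no source used here. The smallest count of any of the 10 genes was 1373 (HK2 in PSC replicate 2), about 343 read pairs. Over all genes the libraries of each stage differed by more than read sampling. Most marker lists followed the stage labels in their sums, though not in each gene. The summed level of 5 pluripotency genes was 3429 to 3818 FPKM in PSC and at most 270.5 in the later stages, where PRDM14 was listed at 0. POU5F1 gave most of the PSC sum (3063 and 3457), and SOX2 was higher in LPO (38.06 and 38.37) than in PSC (5.83 and 4.11). FPKM divide fragments by transcript length and library size, a level that can be compared between genes. The 5 endoderm markers summed to 260.1 to 274.7 FPKM in DE and at most 83.97 elsewhere. The 5 foregut markers summed to 44.29 to 47.16 FPKM in AFE, below DE (115.9 to 117.2), where FOXA2 gave most of the sum. AFE was also below LPO (63.64 to 65.87), where SOX2 gave most of it. The 5 lung progenitor markers summed to 65.67 to 66.75 FPKM in AFE and 91.4 to 96.29 in LPO, against at most 2.43 before. IRX3 gave most of the AFE sum (51.13 and 53.30) and was lower in LPO (16.50 and 18.99). SOX9 gave most of the LPO sum (51.01 and 54.36), and SFTPC had 0.36 and 0.57 there. The 4 mesenchyme markers, all detected in LPO, summed to 1386 and 1421 FPKM there and to 76.68 to 383.95 elsewhere. Their part in the LPO results below was not tested. In these bulk samples fewer cells of a type and less RNA per cell cannot be told apart.

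All 10 enzymes passed the filter on low counts, and all 10 varied over the protocol (F test in edgeR over the 4 stages, adjusted p under 0.05 after Benjamini-Hochberg over 19346 genes). The same call was made for 79.2% of all genes tested, so a call among stages says little about these 10.
By level, the sum of the 10 enzymes was 7384 and 6777 FPKM in PSC, 12740 and 9648 in DE, 9499 and 9498 in AFE, and 12985 and 13044 in LPO. PSC was the lowest stage by this sum, and LPO lay above AFE in both libraries, whereas DE replicate 1 came close to LPO. GAPDH alone supplied 71.9% of the sum in PSC, 50.5% and 55.5% in DE and AFE, and 45.3% in LPO (means of 2 libraries, SD at most 0.505 percentage points). Without GAPDH the other 9 summed to 2101 and 1883 FPKM in PSC and to 7082 and 7151 in LPO.

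**Figure D1:**
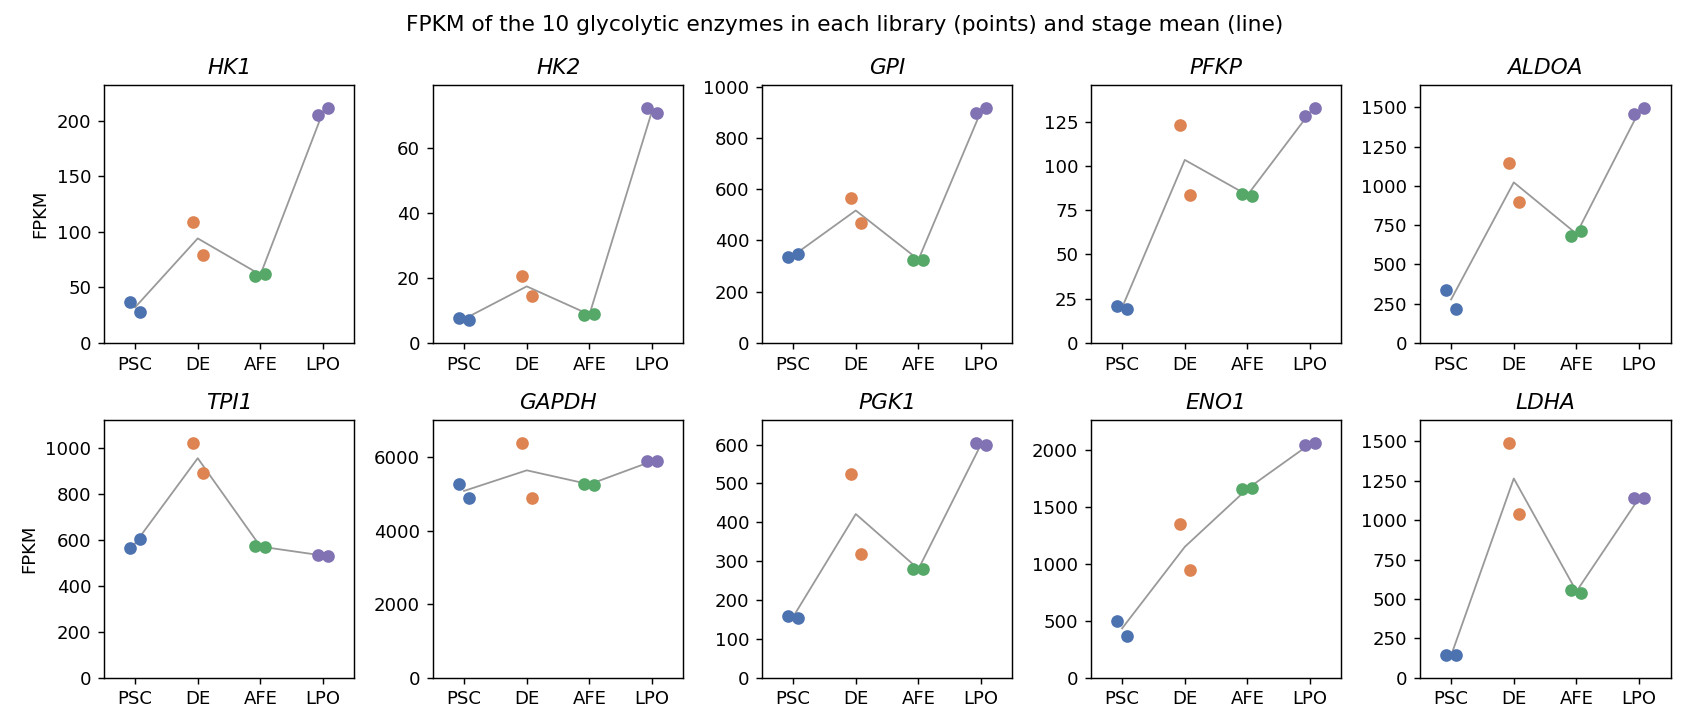
FPKM of each enzyme (vertical axis, linear from 0) at the 4 stages (horizontal axis), with a point for each library and a line through the stage means. HK2 stood between 70.58 and 72.07 in LPO against at most 20.45 elsewhere, and DE replicate 1 lay above DE replicate 2 in all 10 panels.

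The hexokinases, which open the pathway, had low levels in PSC. HK1, the ubiquitous hexokinase (chromosome 14, 72351246 to 72460924 in the deposited table's coordinates, for which the sources used here give no build), had 36.45 and 27.41 FPKM in PSC, 108.7 and 79.29 in DE, 60.30 and 62.33 in AFE, and 205.1 and 210.9 in LPO. Its stages did not overlap, in the order PSC, AFE, DE and LPO, and each neighbour in that order differed (adjusted p = 9.1e-04, 0.027 and 0.00557, edgeR). Its counts ran from 6566 to 88850.

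HK2, the inducible hexokinase of insulin-sensitive and proliferating tissue (chromosome 3, 68153835 to 68231615), had 7.79 and 6.89 FPKM in PSC, 20.45 and 14.30 in DE, 8.48 and 8.93 in AFE, and 72.07 and 70.58 in LPO. LPO stood far above every other library, and its change from AFE, 5.82-fold (log2 2.54, SE 0.159), was the largest of the 10 enzymes at that step. PSC and AFE were not separated by the test (log2 difference 0.33, 95% interval -0.03 to 0.69), although their libraries did not overlap. HK2 held the smallest counts of the list, from 1373 to 25387.

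GPI, which converts glucose 6-phosphate to fructose 6-phosphate (chromosome 6, 44038357 to 44069328), had 334.9 and 346.4 FPKM in PSC, 566.2 and 468.1 in DE, 325.6 and 325.1 in AFE, and 896.2 and 915.9 in LPO. PSC and AFE overlapped after scaling, with a log2 difference of 0.02 (95% interval -0.18 to 0.22), and DE and LPO each lay above both.

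PFKP, the platelet-type subunit of phosphofructokinase (chromosome 10, 67022655 to 67082449), had 20.68 and 19.27 FPKM in PSC and then 123.4 and 83.44 in DE, 83.94 and 83.08 in AFE, and 128.2 and 132.5 in LPO. PSC stood apart, and none of the 3 later stages differed from another by the test (adjusted p = 0.235, 0.441 and 0.562). PFKP shares 7802 bases with PITRM1 on the opposite strand, which held 20.9% to 238% of PFKP's count depending on the library. The libraries were made strand-specific, but no source used here gives the strand setting of the counting, so the PFKP values are uncertain to that extent.

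ALDOA, the muscle-type aldolase found in most tissues (chromosome 3, 18253384 to 18260163), had 336.8 and 217.0 FPKM in PSC, 1148 and 896.7 in DE, 679.4 and 711.2 in AFE, and 1457 and 1494 in LPO. Its PSC libraries differed by 1.51-fold, the widest gap of the 10 enzymes at that stage, and lay below all others. On scaled counts DE and LPO overlapped (log2 difference 0.08, adjusted p = 0.713, edgeR).

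TPI1, which interconverts the triose phosphates (chromosome 5, 63839255 to 63843134), took a different course. It had 564.7 and 606.5 FPKM in PSC, 1023 and 891.4 in DE, 572.6 and 570.8 in AFE, and 534.7 and 530.1 in LPO. DE was the single high stage, and on scaled counts LPO was lower than each of the others. PSC and AFE overlapped (log2 difference 0.05, 95% interval -0.13 to 0.22).

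GAPDH, which oxidises glyceraldehyde 3-phosphate and is often used as a reference gene (chromosome 5, 64129679 to 64133991), had the highest level of the 10 in every library. Its FPKM were 5284 and 4893 in PSC, 6390 and 4908 in DE, 5280 and 5256 in AFE, and 5904 and 5893 in LPO. DE replicate 1 was the highest library and PSC replicate 2 the lowest, so the DE pair spanned nearly the whole range. Its counts ran from 236469 to 536592.

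PGK1, the first ATP-yielding enzyme of the pathway (chromosome X, 62187558 to 62210705), had 159.3 and 153.3 FPKM in PSC, 523.2 and 319.5 in DE, 279.9 and 279.6 in AFE, and 603.9 and 598.6 in LPO. Its DE libraries differed by 1.64-fold, the widest gap of the list at that stage. On scaled counts DE and LPO overlapped.

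ENO1, the enolase of most tissues (chromosome 6, 69385883 to 69401118), had 499.4 and 365.4 FPKM in PSC, 1348 and 946.9 in DE, 1654 and 1661 in AFE, and 2043 and 2057 in LPO. It was the only one of the 10 whose mean FPKM went up at every step. It was second in level to GAPDH in AFE and LPO, and LDHA exceeded it in both DE libraries.

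LDHA, the muscle-type lactate dehydrogenase subunit (chromosome 2, 40814169 to 40826715), is listed in the deposited table by its Ensembl identifier ENSSSCG00000013366 alone, and its symbol came from a reference table of gene names. It had 140.8 and 141.1 FPKM in PSC, 1489 and 1041 in DE, 554.9 and 540.6 in AFE, and 1141 and 1142 in LPO. PSC was the low stage by a wide margin, and on scaled counts LDHA had the widest range of stage means of the 10. There the order was PSC, AFE, LPO and DE, with each neighbour called different (adjusted p = 1.2e-05, 0.00877 and 0.00668, edgeR).

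From PSC to DE the enzymes were higher along nearly the whole pathway. Of the 10 enzymes 9 rose and none fell, where 30.8% of all genes tested rose and 23.0% fell. The median log2 change of the 10 was 1.46, against 0.08 over all genes. PSC and DE libraries did not overlap for 9 of the 10 enzymes and for 72.7% of all genes. LDHA rose 9.20-fold (log2 3.20, SE 0.152, adjusted p = 2.0e-06), PFKP 5.30-fold (SE 0.164) and ALDOA 3.80-fold (SE 0.19). HK1 rose 3.02-fold, PGK1 2.76-fold, ENO1 2.73-fold and HK2 2.43-fold, and TPI1 and GPI rose less, by 1.68-fold and 1.56-fold. GAPDH did not pass the test (log2 0.19, 95% interval -0.06 to 0.43, adjusted p = 0.168), and its PSC and DE libraries overlapped. Without DE replicate 2 GAPDH was called (log2 0.35, adjusted p = 4.5e-04), and without DE replicate 1 its value was -0.01.

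All 10 enzymes were higher in DE replicate 1 than in DE replicate 2. The median gap was 0.48 on the log2 CPM scale (counts as a share of the scaled library), from 0.20 for TPI1 to 0.71 for PGK1. Over all genes the median gap was 0, and 47.2% of genes were higher in replicate 1. In the same pair 14 of 17 hypoxia-related genes outside glycolysis were higher in replicate 1, with a median gap of 0.24. Replicate 1 was the higher library for 7 of the 10 enzymes in PSC, 2 in AFE and 3 in LPO, and all gaps of AFE and LPO lay between -0.08 and 0.03. The part of this gap in the DE results was not tested, but each DE rise over PSC named above was called without DE replicate 1 and without DE replicate 2.

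**Figure D2:**
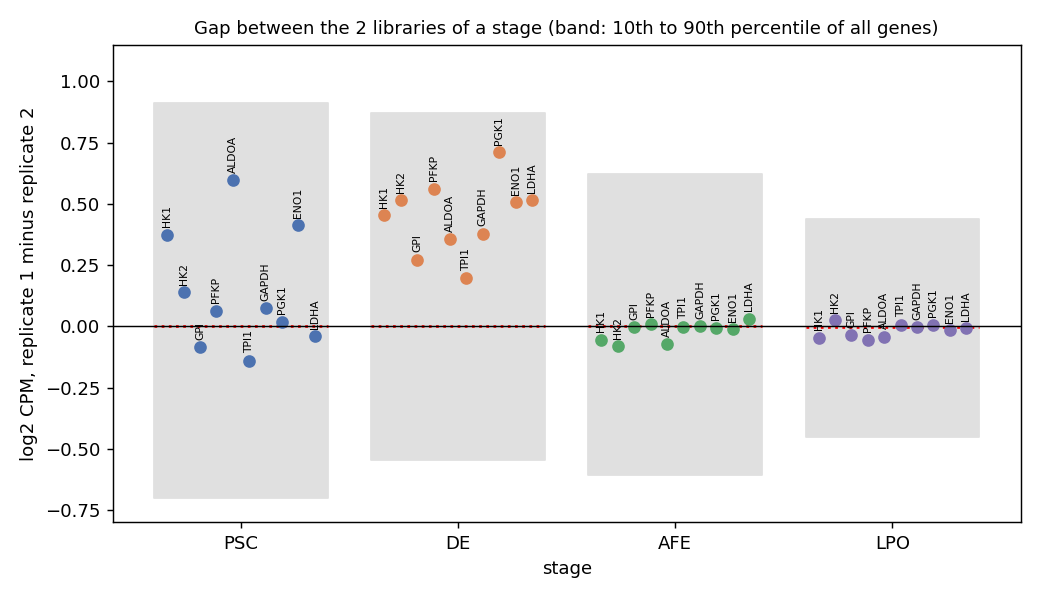
Difference in log2 CPM between replicate 1 and replicate 2 (vertical axis) for each enzyme (points) at each stage (horizontal axis), with the 10th to 90th percentile of all genes as a grey band and their median as a dotted line. In DE all 10 points lie above 0, from 0.20 to 0.71, inside the band.

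From DE to AFE HK1, HK2, GPI, TPI1 and LDHA fell and ENO1 rose. Of the 10 enzymes 5 fell and 1 rose, where 17.4% of all genes fell and 17.9% rose. The median log2 change was -0.56, against 0 over all genes, and the libraries did not overlap for 8 of the 10 (69.0% of all genes). LDHA fell 2.23-fold (log2 -1.16, SE 0.141, adjusted p = 5.7e-04), the only change of 2-fold or more. HK2 fell 1.93-fold, TPI1 1.62-fold, GPI 1.54-fold and HK1 1.48-fold. ENO1 rose 1.49-fold (log2 0.58, SE 0.172, adjusted p = 0.0338). ALDOA (log2 -0.51, adjusted p = 0.0664), PGK1 (-0.54, adjusted p = 0.0575), PFKP (-0.26) and GAPDH (-0.05) did not pass the edgeR test.

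The calls of HK1 and ENO1 were lost when some single libraries were left out, with smaller changes where a DE library was left out and about the same changes otherwise. HK1 had a log2 change of -0.32 without DE replicate 1 (adjusted p = 0.142) and, not called either, -0.54 and -0.59 without AFE replicate 1 or 2 (adjusted p = 0.131 and 0.105), against -0.57 with all libraries. ENO1 had 0.34 without DE replicate 2 (adjusted p = 0.158). Its change without AFE replicate 1 or 2 was 0.58 and 0.57 (adjusted p = 0.117 and 0.123), and without LPO replicate 1 or 2 it was 0.57 in both cases (adjusted p = 0.0514 and 0.0531). In the other direction, PFKP (log2 -0.53, adjusted p = 0.00205), PGK1 (-0.87, adjusted p = 7.6e-05) and GAPDH (-0.24, adjusted p = 0.00501) were called lower in AFE without DE replicate 2. Without DE replicate 1 GAPDH was called higher in AFE (log2 0.15, adjusted p = 0.0318). ALDOA was called lower in AFE without PSC replicate 1 or 2 (adjusted p = 0.00735 and 0.00747).

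From AFE to LPO both hexokinases of the 10 and GPI had the largest rises, and PFKP was not called. Of the 10 enzymes 6 rose and 2 fell, where 30.2% of all genes rose and 29.6% fell. The median log2 change was 0.58, against 0.09 over all genes, and the libraries did not overlap for any of the 10 (84.4% of all genes). HK2 rose 5.82-fold (adjusted p = 4.5e-06), HK1 2.41-fold (2.3e-04) and GPI 1.98-fold (2.9e-05). PGK1 rose 1.53-fold, ALDOA 1.51-fold and LDHA 1.48-fold. TPI1 fell 1.51-fold (log2 -0.60, SE 0.0757, adjusted p = 2.4e-04) and GAPDH 1.26-fold (log2 -0.33, SE 0.105, adjusted p = 0.0267). PFKP (log2 0.15, adjusted p = 0.441) and ENO1 (-0.19, adjusted p = 0.382) did not pass the edgeR test.

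The calls of ALDOA, PGK1 and GAPDH at this step were each lost without any one of the 4 AFE and LPO libraries, with adjusted p of 0.0677 to 0.114, 0.0799 to 0.0953 and 0.0782 to 0.0933. The log2 changes stayed about as large, at 0.55 to 0.63 for ALDOA, 0.59 to 0.61 for PGK1 and -0.35 to -0.33 for GAPDH. LDHA was not called without AFE replicate 2 (log2 0.55, adjusted p = 0.0521). PFKP was called higher in LPO without DE replicate 2 (log2 0.18, adjusted p = 0.0274).

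Over the whole course, LPO against PSC, 8 of the 10 enzymes rose and TPI1 fell, where 41.5% of all genes rose and 28.8% fell. The 8 rises were each 2-fold or more. The median log2 change was 1.92, against 0.49 over all genes, and the libraries did not overlap for any of the 10 (86.2% of all genes). HK2 rose 7.32-fold (log2 2.87, SE 0.162), LDHA 6.10-fold (2.61, SE 0.148), HK1 4.91-fold and PFKP 4.91-fold. ALDOA rose 4.02-fold, ENO1 3.58-fold, PGK1 2.90-fold and GPI 2.00-fold. TPI1 fell 1.46-fold (log2 -0.55, SE 0.0757, adjusted p = 3.1e-04). GAPDH did not pass the test (log2 -0.20, 95% interval -0.44 to 0.05, adjusted p = 0.129), but was called lower without DE replicate 1 or 2 (adjusted p = 0.00163 and 0.00167). The 4 comparisons share libraries, so their values are not independent of each other.

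**Figure D3:**
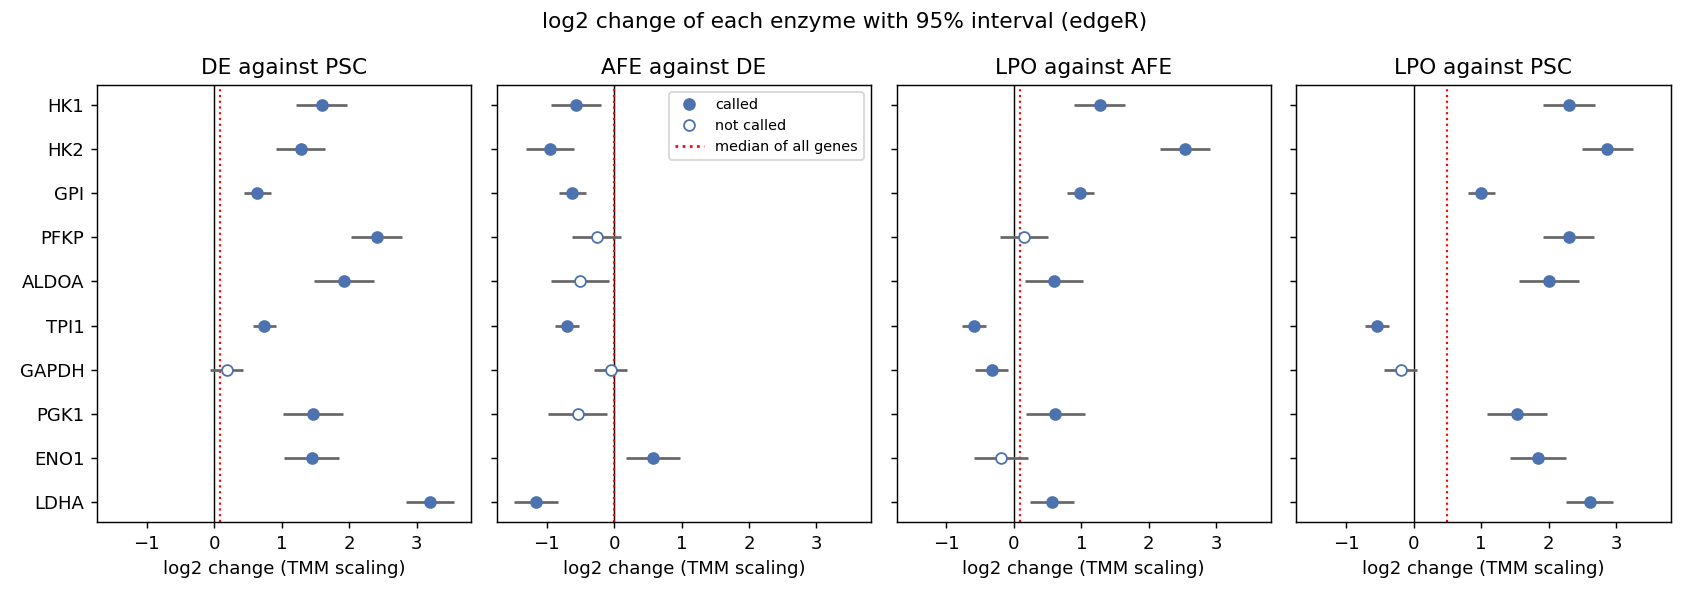
log2 change of each enzyme (horizontal axis) in the 4 comparisons (panels), with 95% intervals as lines. Filled points were called at an adjusted p under 0.05, and the dotted line is the median of all genes, at 0.49 in LPO against PSC, where TPI1 (-0.55) and GAPDH (-0.20) lie to the left of it.

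How the libraries were put on a common scale decided the small changes. TMM, the scaling used above, gave the LPO libraries factors of 1.269 and 1.263 and all other libraries 0.9006 to 0.9543. Against plain library totals it lowered every gene's LPO value by 0.49 on the log2 scale relative to AFE and by 0.42 relative to PSC. FPKM carry library totals, without this factor: the ratio of FPKM to plain CPM of a gene varied by at most 1.018-fold between libraries. The FPKM of all genes summed to 345563 and 347824 in LPO and to 439098 to 467008 in the other libraries. The median change of all genes from AFE to LPO was 0.09 under TMM, 0.15 under size factors of the DESeq2 type, 0.22 under upper-quartile factors and 0.58 under library totals.

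GAPDH showed this most plainly. By FPKM both LPO libraries (5904 and 5893) lay above both AFE libraries (5280 and 5256). By TMM-scaled counts the order was the reverse, with 6289 and 6304 CPM in LPO and 7917 in each AFE library to the nearest whole number. The log2 change from AFE to LPO was -0.33 under TMM (adjusted p = 0.0267), -0.27 under size factors (0.0556), -0.20 under upper-quartile factors (0.14) and 0.16 under library totals (0.242). From PSC to LPO it was -0.20 under TMM (0.129), -0.31 under size factors (0.0303), -0.32 under upper-quartile factors (0.029) and 0.23 under library totals (0.0914). A direction for GAPDH in LPO therefore holds for the scaling it was computed on. From PSC to DE the change of GAPDH, 0.19 under TMM, turned to -0.09 under upper-quartile factors.

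TPI1 kept its sign under these 4 scalings but not its call. From AFE to LPO its log2 change was -0.60 under TMM, -0.54 under size factors, -0.47 under upper-quartile factors and -0.11 under library totals, and the last missed the threshold (adjusted p = 0.22). It was positive, at 0.33, once FPKM were rescaled to the same sum in every library (TPM). From PSC to LPO library totals gave -0.12 (adjusted p = 0.156) and TPM 0.25. ENO1 was not called from AFE to LPO under any of the 4, and its sign turned from -0.19 under TMM to 0.30 under library totals. PFKP was called higher in LPO than AFE under library totals alone (log2 0.63, adjusted p = 0.00924), against 0.15, 0.21 and 0.28 under the others.

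The calls of the larger changes were the same under the 4 scalings, but not which changes reached 2-fold. Under TMM the 3 steps held 7, 1 and 2 changes of 2-fold or more and the whole course 8, and all of these were called under all 4. From AFE to LPO changes of that size numbered 3 under DESeq2-type and under upper-quartile factors, with GPI added, and 6 under library totals, with GPI, ALDOA, PGK1 and LDHA added (log2 1.05 to 1.47). From PSC to LPO they numbered 7 under DESeq2-type and under upper-quartile factors, where GPI had 0.89 and 0.88, and 8 under library totals. At the other steps the counts were the same. Under TMM 34.3%, 17.6% and 43.3% of all genes were called with such a change at the 3 steps and 56.5% over the whole course. Of the smaller ones all 3 from PSC to DE and all 9 from DE to AFE had the same call under each. From AFE to LPO 3 of 8 did not, and from PSC to LPO 2 of 2. Under library totals 7 enzymes rose from AFE to LPO and none fell (edgeR), in place of 6 and 2, and of all genes 40.1% rose and 21.7% fell. DESeq2-type and upper-quartile factors gave 6 and 1.

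**Figure D4:**
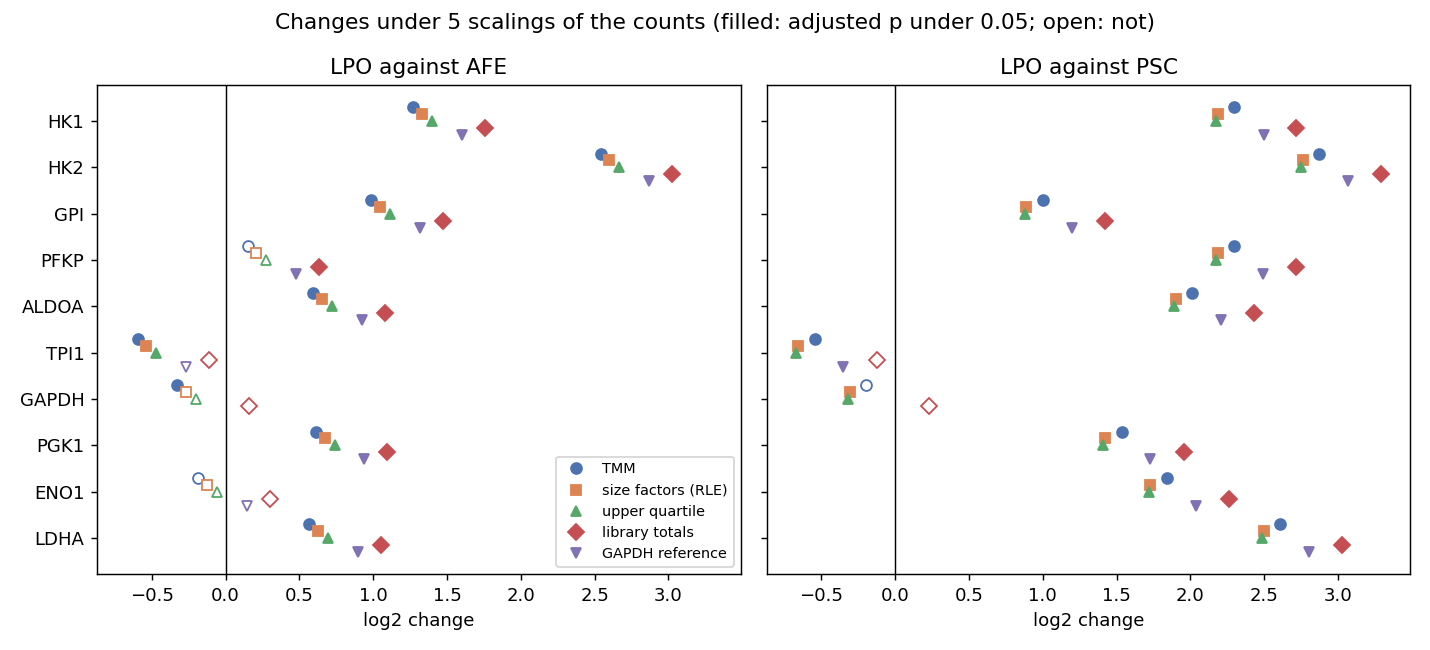
log2 change of each enzyme (horizontal axis) from AFE to LPO and from PSC to LPO under 5 ways of scaling the counts (symbols), filled where the adjusted p was under 0.05. HK2 and HK1 stay right of 0 under all 5, whereas GAPDH runs from -0.33 to 0.16 in the left panel.

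Ratios between enzymes of the same library need no scaling between libraries. The log2 ratio of LDHA to GAPDH was -5.17 ± 0.0806 in PSC, -2.17 ± 0.0965 in DE, -3.27 ± 0.0219 in AFE, against -2.37 ± 0.00252 in LPO (mean ± SD, n = 2). The ratio of HK2 to GAPDH moved from -9.44 ± 0.047 in PSC to -6.37 ± 0.0194 in LPO, an 8.39-fold change. For HK1 it moved 5.67-fold, for PFKP 5.63-fold, for ALDOA 4.71-fold, for ENO1 4.14-fold, for PGK1 3.32-fold and for GPI 2.29-fold, all upward. TPI1 moved down, from -3.12 ± 0.151 in PSC to -3.47 ± 0.00688 in LPO. In each of these the PSC and LPO libraries did not overlap, which on scaled counts held for 86.2% of all genes. No test was made, since 2 libraries against 2 are too few for an exact one to pass the threshold. These ratios show unequal change and not which of the genes moved.

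Within the hexokinases HK1 was the main form throughout, with stage means of 72.9% to 84.3% of the summed FPKM of HK1, HK2, HK3 and HKDC1. HK2 made up 18.5% ± 1.66 of that sum in PSC, 15.3% ± 0.49 in DE, 11.96% ± 0.184 in AFE, against 25.01% ± 0.637 in LPO (mean ± SD, n = 2). HK2 thus stood lowest against HK1 in AFE and highest in LPO. HK3, at 0.81 to 5.75 FPKM, rose 5.20-fold from PSC to LPO. It shares 24 bases with UNC5A on the opposite strand and is uncertain to that extent. HKDC1 stayed below 1 FPKM.

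PFKP held a larger share of the phosphofructokinases in LPO than at the earlier stages. PFKL, the liver-type subunit and no member of the 10, had 32.79 and 36.06 FPKM in PSC, 282.0 and 234.1 in DE, 184.1 and 187.8 in AFE, and 127.7 and 129.9 in LPO. It rose 7.68-fold from PSC to DE (log2 2.94, SE 0.103) and fell 2.03-fold from AFE to LPO (log2 -1.02, SE 0.0962, adjusted p = 4.1e-05). PFKP was 0.356 to 0.631 times PFKL in PSC, DE and AFE and 1.00 and 1.02 times PFKL in LPO. Its share of the family was 32.3% in PSC, 27.7% in DE, 30.1% in AFE, against 48.6% in LPO. PFKM, the muscle-type subunit, had 7.40 to 9.68 FPKM in all libraries and went from 12.1% of the family in PSC to 2.43% in DE. Its fall from AFE to LPO (log2 -0.41, adjusted p = 0.012) turned to 0.07 under library totals.

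ALDOA supplied 89.6% to 95.1% of the summed FPKM of ALDOA and ALDOC (stage means). ALDOC, the brain-type aldolase, had 26.77 and 21.05 FPKM in PSC, 146.1 and 95.14 in DE, 34.65 and 36.96 in AFE, and 104.0 and 98.55 in LPO. It rose 5.18-fold, fell 3.26-fold and rose 2.01-fold over the 3 steps (adjusted p = 3.0e-05, 4.0e-04 and 0.00218, edgeR). It was lower in LPO than in DE (log2 -0.70, adjusted p = 0.0128). For ALDOA neither the change from DE to AFE nor the difference between DE and LPO was called, and the difference between both genes was not tested.

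Among the enolases ENO1 supplied 96.4% ± 0.307 in PSC, 93.0% ± 2.5 in DE, 98.4% ± 0.0168 in AFE, against 86.2% ± 0.113 in LPO. The balance came mostly from ENO2, the enolase of neurons and neuroendocrine cells. ENO2 had 9.39 and 8.23 FPKM in PSC, 116.7 and 42.44 in DE, 20.87 and 20.70 in AFE, and 322.1 and 329.4 in LPO. Its DE libraries were far apart, and the LPO libraries stood above all others. ENO2 rose 27.8-fold from PSC to LPO (log2 4.80, SE 0.44) and 11.1-fold from AFE to LPO (log2 3.48, SE 0.41), where ENO1 did not pass the test. Relative to ENO1 the log2 ratio of ENO2 moved by 2.95 between PSC and LPO, a 7.72-fold change. ENO3, the muscle-type enolase, fell 3.68-fold from PSC to LPO and ended at 2.92 and 2.27 FPKM.

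Lactate dehydrogenase showed the widest exchange within a family. The deposited table holds an entry with no symbol, ENSSSCG00000000576 (chromosome 5, 51810943 to 51831216), annotated there with the enzyme class of L-lactate dehydrogenase and lying between KCNJ8 and SPX. RefSeq (assembly Sscrofa11.1) places an LDHB, the heart-type subunit, of 20287 bases next to KCNJ8, and a second gene of that symbol, of 1280 bases, elsewhere. The unnamed entry spans 20274 bases, and so matches the first of these in place and closely in length. The unnamed entry was looked up after the file had been seen, and is called by its identifier because the deposited table gives the symbol LDHB to another entry. Its level was 2315 and 2475 FPKM in PSC, 1076 and 1050 in DE, 1160 and 1142 in AFE, and 487.9 and 507.6 in LPO. It fell from PSC to DE (log2 -1.14, SE 0.0573, adjusted p = 2.6e-06) and 3.25-fold from AFE to LPO (log2 -1.70, SE 0.0581, adjusted p = 3.9e-07). LDHA rose at both steps.

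LDHA thereby went from 5.53% ± 0.239 of L-lactate dehydrogenase FPKM in PSC to 53.8% ± 5.83 in DE, 32.1% ± 0.165 in AFE and 69.5% ± 0.595 in LPO (mean ± SD, n = 2). In PSC the unnamed entry exceeded LDHA 16.4-fold and 17.5-fold, and in LPO LDHA exceeded the entry 2.34-fold and 2.25-fold. The log2 ratio of LDHA to the entry moved by 5.28 between PSC and LPO, 38.9-fold. The sum of the family moved less, from 2469 and 2631 FPKM in PSC to 1631 and 1652 in LPO. The entry named LDHB (chromosome 2, 12988755 to 12990035, a span of 1281 bases) had 2.52 to 15.08 FPKM and may share reads with the unnamed entry, so both are uncertain. LDHC stayed below 1 FPKM. LDHD, which acts on D-lactate, rose 4.14-fold from PSC to DE and fell 3.92-fold from AFE to LPO.

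**Figure D5:**
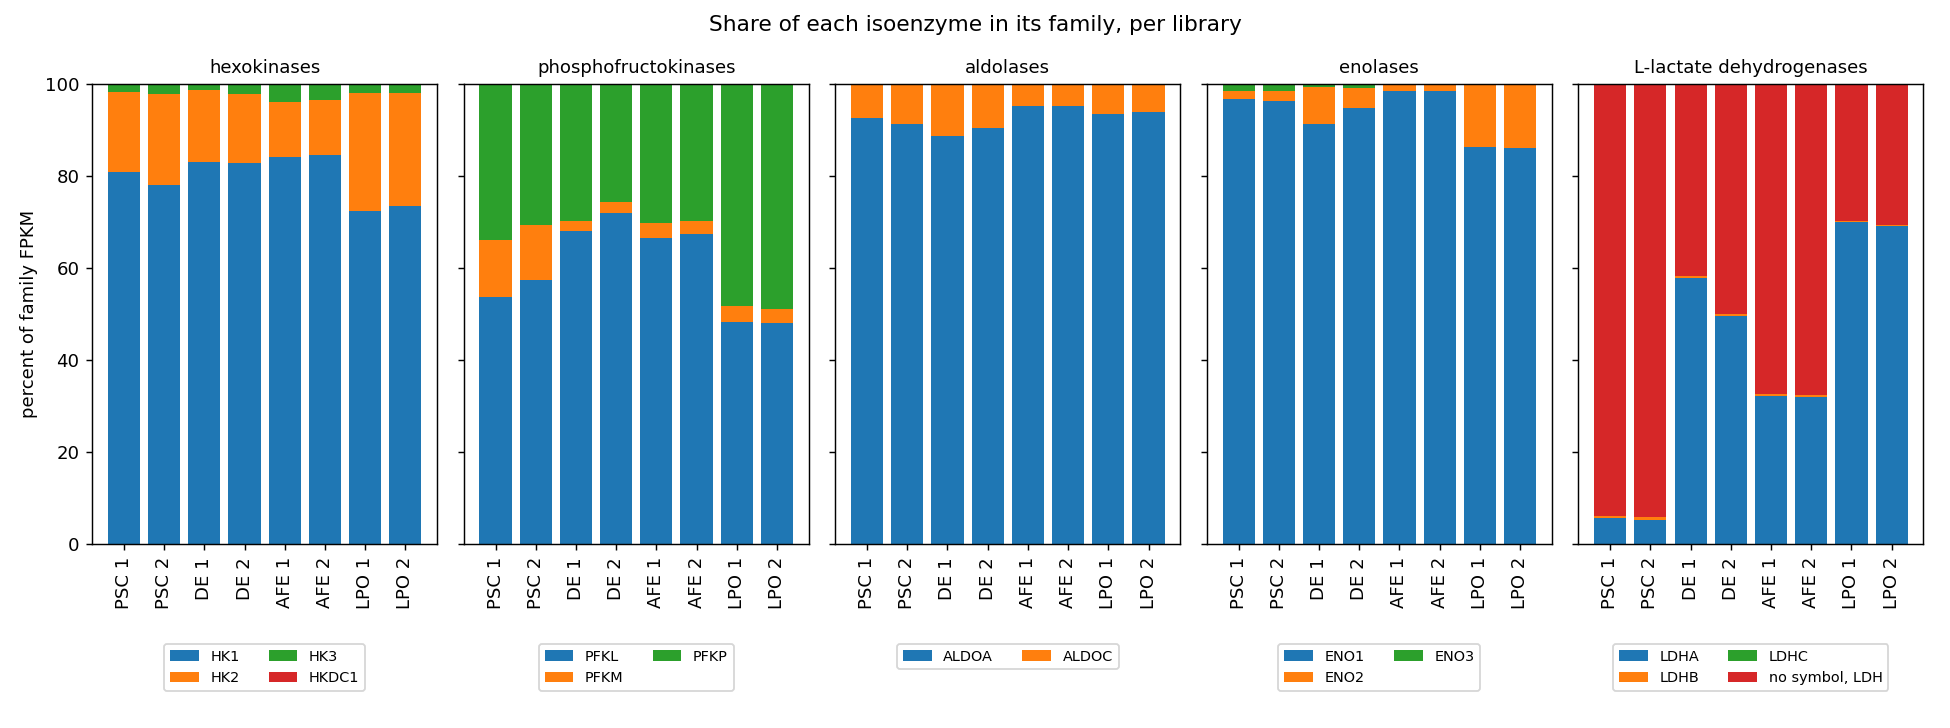
Share of each isoenzyme in the summed FPKM of the isoenzymes shown for its family (stacked bars, 0 to 100%) in the 8 libraries (horizontal axis) for 5 families. The LDHA share runs from 5.36% and 5.70% in PSC to 69.1% and 69.9% in LPO, and PFKP and ENO2 take their largest shares in LPO.

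The remaining steps had 1 main form. PGAM1, the phosphoglycerate mutase, had 265.4 and 241.6 FPKM in PSC, 545.4 and 406.1 in DE, 297.3 and 294.4 in AFE, and 478.6 and 469.5 in LPO. It rose 1.93-fold from PSC to DE and 1.41-fold from PSC to LPO, and shares 2153 bases with EXOSC1 on the opposite strand. BPGM rose 3.67-fold from PSC to LPO but stayed at 0.45 to 4.01 FPKM, and PGAM2, at 0.20 to 3.12 FPKM, overlaps the far more abundant DBNL and is uncertain. PKM, pyruvate kinase of most tissues, had 332.1 and 317.1 FPKM in PSC, 664.6 and 570.0 in DE, 436.2 and 440.1 in AFE, and 472.3 and 480.9 in LPO. It rose 1.95-fold from PSC to DE (adjusted p = 1.4e-05, edgeR). Its fall from AFE to LPO (log2 -0.37, adjusted p = 0.00197) turned to 0.11 under library totals. PKLR, the liver and red-cell form, was highest in PSC (2.54 and 2.15 FPKM). GAPDHS stayed below 1 FPKM, and PGK2 was not analysed here. The counts that follow hold the short LDHB entry but not ENSSSCG00000000576, and also genes below 1 FPKM such as HKDC1. Of the 16 other isoenzymes counted, all tested, 10 rose and 1 fell from PSC to DE, 1 rose and 9 fell from DE to AFE, 6 rose and 6 fell from AFE to LPO, and 7 rose and 4 fell from PSC to LPO. In the same order 30.8% of all genes rose and 23.0% fell, 17.9% rose and 17.4% fell, 30.2% rose and 29.6% fell, and 41.5% rose and 28.8% fell, so the counts of the last 2 comparisons lie near those of all genes.

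Among the transporters, SLC2A1 (GLUT1) carries glucose in and SLC16A3 (MCT4) carries lactate out. SLC2A3 and SLC16A1, not matched by symbol, were not analysed here, so the levels below do not give the whole of transport. SLC2A1 had 29.54 and 25.44 FPKM in PSC, 694.5 and 599.9 in DE, 162.5 and 156.8 in AFE, and 457.3 and 463.9 in LPO. It rose 24.1-fold, fell 3.92-fold and rose 2.05-fold over the 3 steps, each called (adjusted p = 9.6e-08, 5.7e-06 and 2.0e-05, edgeR). SLC16A3 had 7.59 and 6.63 FPKM in PSC, 401.6 and 271.7 in DE, 162.5 and 167.4 in AFE, and 205.9 and 213.6 in LPO, a rise of 48.5-fold from PSC to DE. Of the 5 transporters tested 3 rose and 1 fell from PSC to DE, 1 rose and 3 fell from DE to AFE, 1 rose from AFE to LPO and 2 rose from PSC to LPO. The rises in the last 2 comparisons are no more frequent than over all genes, of which 30.2% and 41.5% rose. From PSC to DE 30.8% of all genes rose and 23.0% fell, and from DE to AFE 17.9% rose and 17.4% fell. SLC16A7, a monocarboxylate transporter, stayed below 0.4 FPKM and was the fall from PSC to DE and the rise from DE to AFE. SLC2A2, counted among the rises and then the falls at these steps, had at most 0.1 FPKM in any library. Only the calls of SLC2A1 and SLC16A3 at these steps lay above such levels.

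Fructose 2,6-bisphosphate, the strongest activator of phosphofructokinase, is set by the PFKFB enzymes and lowered by TIGAR. PFKFB3 had 0.70 and 0.57 FPKM in PSC, 31.57 and 17.57 in DE, 10.06 and 10.57 in AFE, and 135.5 and 138.7 in LPO. It rose 9.44-fold from AFE to LPO (log2 3.24, SE 0.249). TIGAR fell from 8.72 and 8.24 FPKM in PSC to 1.63 and 1.46 in LPO, 5.49-fold by mean FPKM and 7.26-fold on TMM-scaled counts. Of these 5 genes 3 rose and 2 fell from PSC to LPO, PFKFB2 among the rises, where 41.5% of all genes rose and 28.8% fell.

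Pyruvate enters the mitochondrion as a substrate of the pyruvate dehydrogenase complex, which the PDK kinases switch off. Of 11 genes tested 3 rose and 6 fell from PSC to DE, and as many from PSC to LPO. Of all genes 30.8% rose and 23.0% fell in the first comparison, and 41.5% and 28.8% in the second. PDHB, a subunit of the complex, fell from 66.10 and 69.14 FPKM in PSC to 25.41 and 22.83 in LPO, 2.80-fold by mean FPKM. On TMM-scaled counts PDHB fell 3.72-fold (adjusted p = 3.9e-07, edgeR). DLAT, its acetyltransferase, fell 4.44-fold, but overlaps SDHD and other genes and is uncertain. PDK4 rose from 0.04 and 0.07 FPKM in PSC to 3.27 and 3.23 in LPO.

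The pentose phosphate genes, which draw glucose 6-phosphate away from glycolysis, went the other way in LPO: all 6 tested fell from AFE to LPO, and 5 fell and 1 rose from PSC to LPO. Of all genes 29.6% fell from AFE to LPO and 28.8% from PSC to LPO. TKT fell from 174.2 and 172.9 FPKM in AFE to 59.09 and 60.37 in LPO, 2.90-fold by mean FPKM. On TMM-scaled counts TKT fell 4.09-fold (adjusted p = 7.4e-07, edgeR). TALDO1 fell 4.39-fold and PGLS 3.88-fold at the same step. Gluconeogenesis was represented by 4 tested genes, of which none rose and 3 fell from AFE to LPO, led by PCK2 with a 5.58-fold fall. Of 6 genes of other glucose use, 3 rose and 2 fell from AFE to LPO. At that step 30.2% of all genes rose and 29.6% fell. GFPT1, the entry to hexosamine synthesis, rose 6.17-fold, UGP2, which makes UDP-glucose, rose 1.84-fold, and AKR1B1, aldose reductase, fell 13.1-fold.

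Hypoxia-related genes outside glycolysis, among them the hypoxia-inducible factor subunits HIF1A, ARNT and EPAS1, were counted in the same comparisons. Of 17 tested 13 rose and 2 fell from PSC to DE, 3 rose and 11 fell from DE to AFE, 15 rose and 2 fell from AFE to LPO, and 16 rose and 1 fell from PSC to LPO. Their median log2 changes in those comparisons were 2.22, -0.69, 2.45 and 3.54, against 0.08, 0, 0.09 and 0.49 over all genes. Of all genes 30.8%, 17.9%, 30.2% and 41.5% rose and 23.0%, 17.4%, 29.6% and 28.8% fell. VEGFA, the endothelial growth factor, had 1.03 and 0.97 FPKM in PSC, 26.13 and 23.53 in DE, 15.21 and 14.56 in AFE, and 241.2 and 243.0 in LPO. KDM3A, a histone demethylase, rose 8.88-fold from AFE to LPO, and ADM, a vasodilator peptide, reached 83.06 and 82.86 FPKM there from 6.27 and 5.69. CA9 went the other way, from 23.60 and 24.99 FPKM in PSC to 5.24 and 5.88 in LPO. The falls from PSC to DE were CA9 and EGLN3, and those from AFE to LPO were CA9 and EPAS1. The part of the hypoxia-related genes in the enzymes' changes was not tested.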

How the data were processed

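One deposited table was used, with a column of counts and a column of FPKM for each of the 8 libraries. The authors' expected counts (estimated per gene) are whole numbers and unscaled, and FPKM were computed by the authors. Per the submitters' processing notes, the tools include HISAT2 2.2.1, cutadapt 1.9 and StringTie 2.1.6, and edgeR and DESeq2 are listed too. Their roles, the build and the counting's strand setting are not given in the sources used here.

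Fits were run in edgeR 4.0.16 (R 4.3.3), and alternatives in DESeq2 1.42.0 and limma 3.58.1. Genes passing filterByExpr (19346) were scaled with TMM and fitted with the 4 stages as groups over all 8 libraries (glmQLFit, glmQLFTest, 4 residual degrees of freedom). Calls are genes whose p, adjusted by Benjamini-Hochberg over all genes tested, was under 0.05. The method was tested on simulated data in which few genes changed, in DE alone and up as often as down. That test does not cover the scaling of the LPO libraries. Intervals are 95%. Stages were compared in libraries of 9001093 to 16891567 read pairs. Alternatives were other scalings, filters, units and pseudocounts, DESeq2, a replicate block, fewer libraries and each library left out.

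The 10 enzymes and all gene lists were chosen with earlier results of these data known. Besides the 10, the text names their isoenzymes that reach 1 FPKM at a stage and, per list, up to 3 genes with the smallest adjusted p among stages. Of the hypoxia-related genes, CA9, EGLN3, HIF1A, ARNT and EPAS1 are named as well, and of the transporters SLC2A2. Entries not matched by symbol, such as SLC2A3, SLC16A1, MPC1, PCK1 and PGK2, were not analysed here. Some isoenzymes are not reported here, and family shares and counts leave them out.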

Additional observations from a re-analysis of the deposited data

How the results depend on the processing

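Alternatives moved mainly the small counts of enzymes called lower. Enzymes lower from AFE to LPO, 2 with TMM, numbered 1 with DESeq2-type size factors and with upper-quartile factors, and 0 with library totals, with GAPDH as the reference (chosen after the data were seen), and with limma on log2(FPKM + 1), log2(FPKM + 0.1), FPKM filtered at 5, TPM or quantile-normalized FPKM. Leaving out each replicate gave 1 to 2. Enzymes lower from PSC to LPO, 1 with TMM, numbered 2 with DESeq2, with size factors, with upper-quartile factors and with only the 4 libraries compared, and 0 with library totals and with limma on FPKM under each pseudocount, filter and scaling. Leaving out each replicate gave 1 to 2. Enzymes higher from DE to AFE, 1 with TMM, numbered 0 with limma on log2(FPKM + 1), log2(FPKM + 0.1), TPM and quantile-normalized FPKM, and 0 to 2 when a replicate was left out, and those lower 4 to 8. Enzymes higher from AFE to LPO, 6 with TMM, numbered 10 with TPM and with quantile-normalized FPKM, and 3 to 7 when a replicate was left out (3 without AFE replicate 2). Enzymes lower from PSC to DE numbered 1 in place of 0 with quantile-normalized FPKM. The causes were not tested.

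Signs turned as follows. PFKP, AFE against DE: -0.53 to 0.049 when a replicate was left out (0.049 without DE replicate 1). TPI1, LPO against AFE: 0.33 (TPM) and 0.54 (quantile). TPI1, LPO against PSC: 0.25 (TPM) and 0.57 (quantile). GAPDH, DE against PSC: -0.36 (quantile), -0.090 (upper quartile) and -0.011 to 0.35 when a replicate was left out (-0.011 without DE replicate 1). GAPDH, AFE against DE: -0.24 to 0.15 when a replicate was left out (0.15 without DE replicate 1). GAPDH, LPO against AFE: 0.16 (library totals and FPKM), 0.59 (TPM) and 0.79 (quantile). GAPDH, LPO against PSC: 0.23 (library totals), 0.21 (FPKM), 0.60 (TPM) and 0.35 (quantile). ENO1, AFE against DE: -0.041 (quantile). ENO1, LPO against AFE: 0.14 (GAPDH as the reference), 0.30 (library totals), 0.31 (FPKM), 0.74 (TPM) and 1.40 (quantile). PFKM, LPO against AFE: 0.074 (library totals), 0.081 and 0.074 (FPKM) and 0.49 (TPM). PKM, LPO against AFE: 0.11 (library totals), 0.12 (FPKM), 0.55 (TPM) and 0.56 (quantile). LDHD, LPO against PSC: 0.21 (TPM). PDHB, LPO against AFE: 0.025 (TPM). PC, LPO against AFE: 0.24 (TPM). TALDO1, LPO against PSC: 0.20 (TPM) and 0.39 (quantile).

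Over all genes, calls higher from AFE to LPO numbered 5842 with TMM, 8969 with limma on log2(FPKM + 1), 8801 on log2(FPKM + 0.1) and 10802 on TPM, and calls lower 5732 with TMM and 3122 on TPM. The filter at 5 FPKM tests 9676 genes and so calls fewer, 3582 lower from AFE to LPO, 5191 higher and 3466 lower from PSC to LPO, and 9530 among stages.

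Replicate numbers did not pair the libraries, with correlations of deviations of -0.0136 to 0.00782 between stages. With the replicate block the enzymes called numbered 9 and 0, 1 and 5, 6 and 2, and 8 and 1 (higher and lower, in the order of the comparisons), as without it.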

Other observations

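The genes whose course over the 8 libraries lay closest to the mean course of the 10 enzymes were looked up among 8926 other genes with a symbol and a mean of at least 5 FPKM at some stage, by the root-mean-square difference in centred log2 CPM. They were SH3BGRL2 (0.128), TRAF3IP1 (0.132), SREBF2 (0.134), ALKBH5 (0.142) and GAL3ST4 (0.154). SREBF2, the transcription factor of the cholesterol synthesis genes, had mean levels of 23.02 FPKM in PSC, 71.68 in DE, 48.42 in AFE, against 102.9 in LPO. Of the enzymes themselves, each of which is part of that mean, PGK1 lay nearest to it, at 0.0802, and TPI1 farthest, at 0.768. Closest to LDHA were AFAP1 (0.180), GSN (0.185), PPP1R13L (0.194), CASTOR2 (0.199) and HDAC7 (0.200), nearer than any of the other 9 enzymes, of which PFKP was nearest at 0.353. GSN, the actin-severing protein gelsolin, had mean levels of 8.86 FPKM in PSC, 92.74 in DE, 38.21 in AFE, against 85.31 in LPO. These are descriptions of 8 libraries that share their stages.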
